A study of Mus musculus with 21 samples.

Results

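The genes described here are 9 members of the insulin-like growth factor (IGF) axis, taken from the 24454 genes of the table by their symbols: the ligand Igf1, its receptor Igf1r, the IGF-binding proteins Igfbp2 to Igfbp7, and Pappa, a protease of IGF-binding proteins. They were selected on measured values, since the list was drawn up with their levels in all 7 groups of libraries known. The levels and differences below are therefore a description of these libraries, and the adjusted p-values set each difference against the spread between libraries without being independent evidence for the choice. All 9 members passed the filter on low counts, which kept 13719 genes, but Igfbp3 and Igfbp5 passed it through the Terf1 F/F libraries alone.

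RNA of mouse embryonic fibroblasts (MEFs) was sequenced in 21 libraries, 3 per group, collected 96 h after infection with an adenovirus that carried GFP alone or Cre. Rtel1 F/F cells carry floxed alleles of Rtel1, a DNA helicase that unwinds G4-DNA and telomeric t-loops, and formed the groups +GFP, +Cre and +GFP +TMPyP4, the last with the G4-stabilizing ligand TMPyP4 at 10 μM for 48 h. Rtel1 F/F cells transduced with a pBabe vector for RTEL1 C1252A/C1255A, called RTEL1 CA below, were infected with GFP or Cre, and so were Terf1 F/F cells (Trf1f/f in the labels), which carry floxed alleles of the shelterin gene Terf1. The vector-carrying cells keep their floxed Rtel1 alleles until Cre, and the GFP groups all received virus. Whether replicates came from separate embryos is not given in the sources used here, so p-values measure the spread between these libraries.

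As background, IGF1 is a secreted growth factor that signals through the receptor tyrosine kinase IGF1R to the PI3K-AKT and MAPK pathways. Most IGF in body fluids is held by IGF-binding proteins, which keep it from the receptor or deliver it, and proteases such as PAPP-A release the ligand by cutting the binding proteins. Fibroblasts make both ligands and binding proteins, and several binding proteins are known as secreted products of senescent or differentiating mesenchymal cells.

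Libraries held between 32069888 and 51938593 counts, with a median of 43013208. Levels are given in CPM, counts scaled to the normalized library size, and comparisons between genes in TPM, which also scales for transcript length. Rtel1 was at 26.8 to 31.9 CPM in Rtel1 F/F +Cre and at 59.1 to 66.2 CPM in +GFP libraries, with 253 to 338 CPM in the vector-carrying RTEL1 CA libraries, and Terf1 had 1 to 5 counts in Terf1 F/F +Cre libraries. In the 15 libraries of the Rtel1 F/F line, 52.4% of the variance lay on the first principal component, where the 3 Rtel1 F/F +GFP libraries scored 55.7 to 76.4 and the other 12 at most 26.4, so the levels of the members are also compared with RTEL1 CA +GFP further below. Of 8 fibroblast markers, 7 exceeded 1 CPM in each Rtel1 F/F and RTEL1 CA group and 8 in both Terf1 F/F groups. The exception was Thy1, a fibroblast surface marker, at group means of 0.0426 to 0.252 CPM in Rtel1 F/F and RTEL1 CA groups and of 259 and 223 CPM in Terf1 F/F +GFP and +Cre cells. Myod1, Cd3e, Plin1 and Lep, defining markers of muscle, T cells and fat, were at 0 in every library. Other markers of non-fibroblast types were detected, with group means of 8.32 to 20.1 CPM for Tubb3 (neuron) and 1.22 to 6.04 CPM for Cd68 (leukocyte). Group means reached 1.44 CPM for Csf1r (leukocyte), 3.57 for Kdr (endothelium), 1.36 for Cdh1 (epithelium) and 0.623 for Des (muscle). Adipoq (fat) had at most 3 counts in a library.

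The members lie on 7 chromosomes of GRCm38.p6, the assembly behind mm10. Igfbp2 (chr1:72824480-72852474) and Igfbp5 (chr1:72858065-72874865) are neighbours that face each other with 5590 bases between them. Igfbp3 (chr11:7206086-7215498) and Igfbp4 (chr11:99040005-99052655) share a chromosome, and the others are Igfbp6 (chr15:102144186-102149512), Igfbp7 (chr5:77349240-77408045), Igf1 (chr10:87858265-87937047), Igf1r (chr7:67952257-68233668) and Pappa (chr4:65124174-65357509). Because the study concerns G4-DNA, the 250 bases upstream of each RefSeq start were searched on both strands for 4 runs of at least 3 G separated by 1 to 7 bases. RefSeq start windows were found for 8 of the 9 members, 9 windows in all, and 4 of them held the pattern, namely those of Igfbp2, Igfbp4, Igfbp7 and Igf1r, beside 16.7% of all 32851 windows. With loops of up to 12 bases, 6 member windows and 25.9% of all windows held it. The upstream windows of Igfbp2 (chr1:72824230-72824479, plus strand) and Igfbp7 (chr5:77408046-77408295, minus strand) are shown because both hold the pattern on the gene's own strand and their genes differed in opposite directions after Rtel1 deletion. They are written 5′ to 3′ on that strand, from RefSeq, with the pattern in capitals.
Igfbp2: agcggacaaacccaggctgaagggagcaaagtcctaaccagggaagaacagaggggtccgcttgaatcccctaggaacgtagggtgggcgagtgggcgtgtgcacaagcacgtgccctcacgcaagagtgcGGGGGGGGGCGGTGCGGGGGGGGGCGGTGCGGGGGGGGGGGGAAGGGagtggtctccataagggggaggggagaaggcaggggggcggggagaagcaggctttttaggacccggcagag
Igfbp7: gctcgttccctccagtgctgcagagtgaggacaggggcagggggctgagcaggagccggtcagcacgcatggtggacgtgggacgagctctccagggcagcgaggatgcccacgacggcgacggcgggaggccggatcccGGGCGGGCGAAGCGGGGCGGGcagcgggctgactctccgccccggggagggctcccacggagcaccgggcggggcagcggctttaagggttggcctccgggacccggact
The match in the Igfbp2 window spans 47 bases and ends 72 bases before the start, and that of Igfbp7 spans 21 bases and ends 89 bases before it. The window of Igf1 (chr10:87860861-87861110) held no match. It lies inside the gene span given above and overlaps annotated exons, so the bases upstream of that span were not searched. The windows of Igfbp3 and Igfbp4 also lie inside the spans of their genes. The matches are letters in a window and were not measured as structures.

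**Figure D1:**
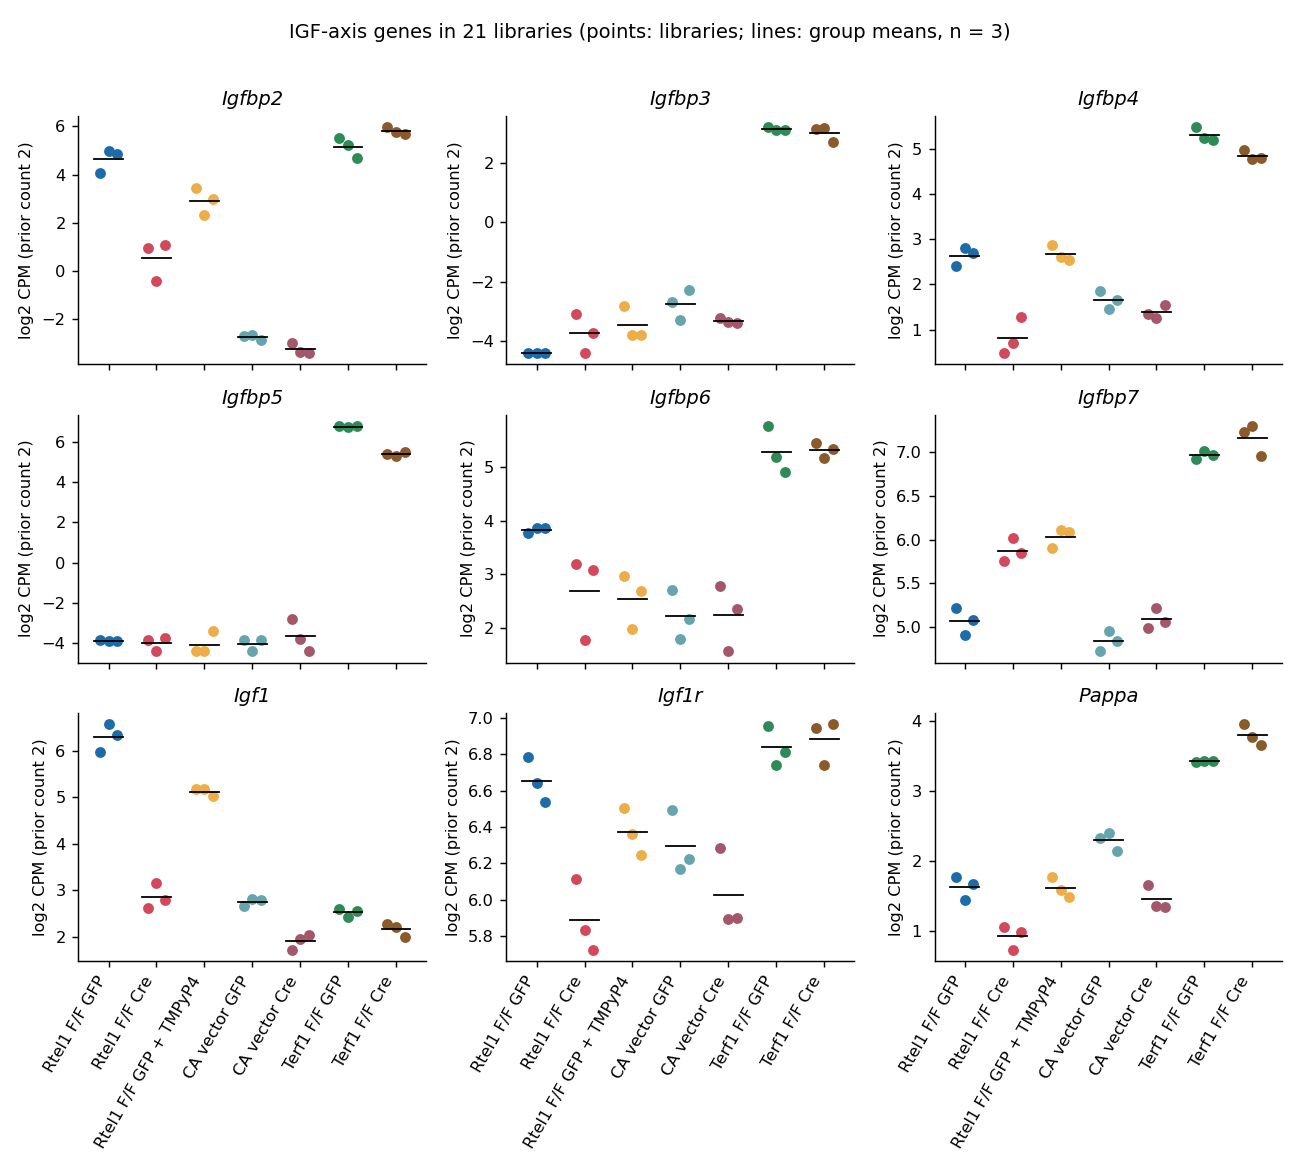
Level of each member (log2 CPM with a prior count of 2, y axis with its own range per gene) in the 21 libraries of the 7 groups (x axis), with a point for each library, a line for the mean of 3 and CA vector for RTEL1 CA. Igf1 is highest in Rtel1 F/F +GFP cells, Igfbp3 and Igfbp5 lie at the bottom of the scale in all groups but the Terf1 F/F cells, and Igfbp2 is lowest in both RTEL1 CA groups.

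Igf1, the ligand, had its highest level in Rtel1 F/F +GFP cells, at 62.7, 94.7 and 80.7 CPM. It was at 6.13, 8.81 and 6.91 CPM in the +Cre libraries and at 35.9, 36.0 and 32.4 CPM in the TMPyP4 libraries. No library of one of these groups overlapped with another group, and TMPyP4 lay between the other two. After Rtel1 deletion Igf1 was reduced, with a log2 fold change of -3.45 ± 0.15 (SE, 10.9-fold lower, n = 3 per group, edgeR adjusted p = 1.03e-11), and TMPyP4 gave a log2 fold change of -1.19 ± 0.14 (adjusted p = 2.96e-06). In bulk RNA, fewer cells that express a gene and less RNA per cell cannot be told apart. RTEL1 CA +GFP cells, with undeleted alleles, had 6.33, 6.95 and 6.85 CPM, which overlapped with the Rtel1 F/F +Cre libraries. RTEL1 CA +Cre cells had 3.25, 3.83 and 4.06 CPM, each below every RTEL1 CA +GFP library, and Igf1 was reduced there with a log2 fold change of -0.85 ± 0.15 (adjusted p = 0.00303), a call lost without any one of the 6 libraries and in a fit of these 2 groups alone (adjusted p = 0.094). In Terf1 F/F cells it was at 5.31 to 6.03 CPM with GFP and 3.96 to 4.78 CPM with Cre (log2 fold change -0.36 ± 0.15, not called, adjusted p = 0.188). All 12 libraries without the Rtel1 F/F +GFP, +Cre and TMPyP4 groups were thus at or below 6.95 CPM, and the Igf1 level of Rtel1 F/F +GFP cells was 11.8-fold that of RTEL1 CA +GFP cells and 13.9-fold that of Terf1 F/F +GFP cells.

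Igfbp2, a secreted binding protein, was at 16.9, 31.5 and 29.3 CPM in Rtel1 F/F +GFP cells, at 1.89, 0.695 and 2.05 CPM with Cre and at 10.7, 4.89 and 7.79 CPM with TMPyP4. The 3 groups did not overlap and stood in the same order as for Igf1. The log2 fold change was -4.07 ± 0.36 after deletion (16.8-fold lower, adjusted p = 9.67e-08) and -1.74 ± 0.31 with TMPyP4 (3.33-fold lower, adjusted p = 3.03e-04). In RTEL1 CA cells Igfbp2 was close to the floor of 3 counts, with 5, 4 and 4 counts (0.108, 0.109 and 0.0914 CPM) with GFP and 4, 2 and 2 counts with Cre, so that no change with Cre could be read there. Terf1 F/F cells held the highest levels, at 46.4, 37.1 and 25.8 CPM in +GFP libraries and 62.1, 54.1 and 51.7 CPM in +Cre libraries, without overlap (log2 fold change 0.62 ± 0.29, not called). Against RTEL1 CA +GFP cells, Rtel1 F/F +GFP cells had 255-fold more Igfbp2 (95% counting interval 149 to 480, from 3749 and 13 counts), although both carry undeleted floxed alleles.

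Igfbp4, a binding protein that inhibits IGF action and is a substrate of PAPP-A, was at 5.25, 6.97 and 6.45 CPM in Rtel1 F/F +GFP cells and 1.35, 1.59 and 2.37 CPM with Cre. The groups did not overlap, and the gene was reduced after deletion (log2 fold change -1.82 ± 0.17, 3.53-fold lower, adjusted p = 1.20e-07). With TMPyP4 it was at 7.23, 6.07 and 5.78 CPM, within the range of the control except for 1 library, and the log2 fold change was 0.03 ± 0.16 (interval of 2 SE on each side, -0.29 to 0.34). Unlike Igf1 and Igfbp2, Igfbp4 therefore differed from control with deletion and was not called with the ligand, and its level in +Cre cells was 3.60-fold below that in TMPyP4-treated cells (log2 fold change -1.85 ± 0.18, adjusted p = 5.65e-07). It was at 2.71 to 3.60 CPM in RTEL1 CA +GFP and 2.36 to 2.89 CPM in RTEL1 CA +Cre cells, which overlapped. In Terf1 F/F cells it was at 36.6 to 44.3 CPM with GFP and 27.1 to 31.5 CPM with Cre, without overlap but not called (log2 fold change -0.46 ± 0.15, adjusted p = 0.0803).

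Igfbp7, which binds IGFs weakly and is also known as a matrix and angiogenesis modulator, was the member that increased. It was at 37.4, 30.0 and 33.8 CPM in Rtel1 F/F +GFP cells, 53.8, 64.6 and 57.5 CPM with Cre and 59.8, 69.2 and 67.9 CPM with TMPyP4. All 6 libraries of deleted or treated cells were above all 3 controls, while +Cre and TMPyP4 libraries overlapped. The log2 fold changes were 0.80 ± 0.10 (adjusted p = 3.54e-06) and 0.96 ± 0.10 (adjusted p = 1.39e-06). RTEL1 CA cells had 26.4 to 31.1 CPM with GFP and 31.7 to 37.3 CPM with Cre, without overlap but not called (log2 fold change 0.25 ± 0.10, adjusted p = 0.254). Terf1 F/F cells had 121 to 128 CPM with GFP and 124 to 157 CPM with Cre.

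Igfbp6, a binding protein with a preference for IGF2, was at 13.6, 14.6 and 14.4 CPM in Rtel1 F/F +GFP cells, at 9.11, 3.40 and 8.46 CPM with Cre and at 7.80, 3.93 and 6.40 CPM with TMPyP4. The control libraries lay above all 6 others, but the differences were not called (log2 fold change -1.02 ± 0.36, adjusted p = 0.0222, and -1.24 ± 0.36, adjusted p = 0.0107). Replicate 2 was the lowest library in both of these groups and in RTEL1 CA +GFP (6.48, 3.45 and 4.45 CPM) and RTEL1 CA +Cre cells (6.84, 2.92 and 5.09 CPM). With TMPyP4 the difference passed the threshold under DESeq2 (adjusted p = 5.83e-04), with DESeq2 size factors (0.00916), with a filter of 10 counts in every library (0.00886) and in a fit of these 2 groups alone (0.00228), and with Cre under DESeq2 (adjusted p = 0.00413). Both also passed with the replicate number as a block (log2 fold change -1.11, adjusted p = 0.00133, and -1.30, adjusted p = 6.27e-04), although the numbers were not found to pair Rtel1 F/F +GFP libraries with the others. Neither passed in any of the 6 fits that left out 1 library. Against RTEL1 CA +GFP the log2 fold changes were 0.54 with Cre and 0.32 with TMPyP4, not called. Terf1 F/F cells had 29.7 to 54.1 CPM with GFP and 35.9 to 43.4 CPM with Cre.

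Igfbp3 and Igfbp5, the main carrier of IGF in serum and a binding protein that attaches to matrix, were all but absent from the 15 libraries of the Rtel1 F/F line. Igfbp3 had 0 counts in all Rtel1 F/F +GFP libraries and at most 7 in any other library of the line, and Igfbp5 had 0 to 5 counts. No fold change between groups of this line is given for Igfbp5, nor for Igfbp3 with Cre or TMPyP4 in Rtel1 F/F cells. In Terf1 F/F +GFP cells Igfbp3 was at 9.18, 8.69 and 8.56 CPM, at least 140-fold higher than in Rtel1 F/F +GFP cells when these are set at the floor of 3 counts per library. Igfbp5 was at 111, 105 and 109 CPM, and its 13756 counts over the 3 libraries against 3 counts gave a ratio of 5184 (95% counting interval 1773 to 25140). Igfbp5 was also the single member called after Terf1 deletion: it was reduced to 42.4, 39.3 and 44.4 CPM (log2 fold change -1.37 ± 0.16, 2.58-fold lower, adjusted p = 1.16e-05). Igfbp3 was at 8.75, 9.10 and 6.56 CPM in the same +Cre libraries, which overlapped with GFP.

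Igf1r, the receptor, varied least, with group means between 59.7 and 118 CPM. It was at 110.1, 99.9 and 92.8 CPM in Rtel1 F/F +GFP cells, 69.1, 57.1 and 52.8 CPM with Cre and 90.8, 82.3 and 75.8 CPM with TMPyP4. All +Cre libraries were below all TMPyP4 libraries, and all TMPyP4 libraries below all controls. The receptor was reduced after deletion (log2 fold change -0.76 ± 0.12, 1.69-fold lower, adjusted p = 5.23e-05), a call that was lost against RTEL1 CA +GFP (log2 fold change -0.40 ± 0.12, adjusted p = 0.038), while the difference with TMPyP4 was not called (log2 fold change -0.28 ± 0.12, adjusted p = 0.073). It was at 72.0 to 90.1 CPM in RTEL1 CA +GFP, 59.3 to 78.0 CPM in RTEL1 CA +Cre, 107 to 124 CPM in Terf1 F/F +GFP and 107 to 125 CPM in Terf1 F/F +Cre cells, and in neither line was it called with Cre.

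Pappa, the protease that cuts IGFBP-4 and other binding proteins, was at low levels in the Rtel1 F/F and RTEL1 CA cells. It was at 3.38, 2.67 and 3.14 CPM in Rtel1 F/F +GFP cells, 2.03, 1.61 and 1.94 CPM with Cre and 3.36, 2.96 and 2.75 CPM with TMPyP4. The +Cre libraries lay below all others of these groups, and the treated and control libraries overlapped. Pappa was reduced after Rtel1 deletion (log2 fold change -0.72 ± 0.13, adjusted p = 1.67e-04) and in RTEL1 CA cells with Cre (5.00, 5.26 and 4.39 CPM with GFP, 3.12, 2.53 and 2.49 CPM with Cre, log2 fold change -0.84 ± 0.13, adjusted p = 8.82e-04). The second of these calls held without each of the 6 libraries in turn, but not in a fit of the 2 RTEL1 CA groups alone (adjusted p = 0.121). In Terf1 F/F cells Pappa stood at 10.6 to 10.8 CPM with GFP and at 12.6 to 15.5 CPM with Cre, which was not called (log2 fold change 0.38 ± 0.12, adjusted p = 0.0641).

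**Figure D2:**
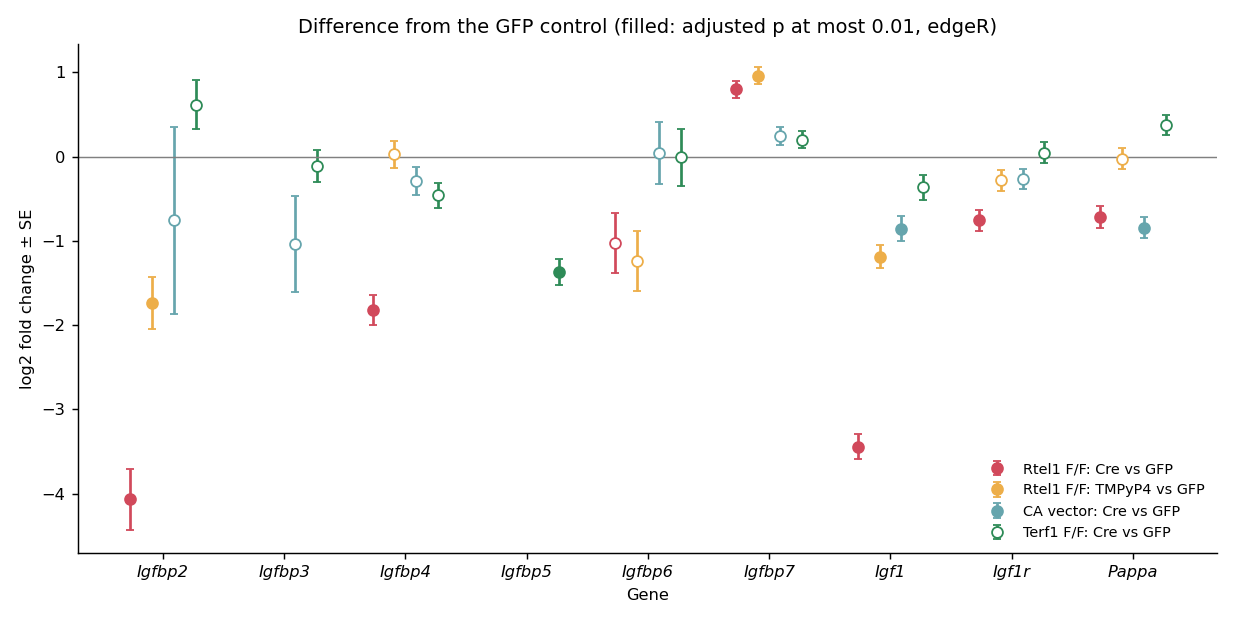
Log2 fold change (y axis) with its SE for each member (x axis) against the GFP libraries of the same cells, 3 libraries per group, with filled points for an adjusted p of at most 0.01. Points are left out where both groups averaged 3 counts or fewer, and the circles of the key show colour only. Igf1 and Igfbp2 reach -3.45 and -4.07 after Rtel1 deletion, and Igfbp5 has a point for Terf1 F/F cells alone.

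Counted over the list, 6 of 9 members were called after Rtel1 deletion, 1 increased and 5 reduced, beside 22.0% and 21% of all tested genes in those directions. With TMPyP4, 3 were called, 1 increased and 2 reduced, beside 16.6% and 13.4%. Deletion and ligand share their control libraries, so the direct comparison of +Cre with TMPyP4 is the one that needs no control. There 5 members were lower in +Cre cells and 0 higher, beside 9.09% and 6.13% of all genes. These 5 were Igf1, Igfbp2, Igfbp4, Igf1r and Pappa, with log2 fold changes of -2.26 ± 0.14, -2.33 ± 0.36, -1.85 ± 0.18, -0.47 ± 0.12 and -0.70 ± 0.13. Fitted on these 6 libraries alone, the calls of Igfbp2, Igf1r and Pappa were lost (adjusted p = 0.0153, 0.0334 and 0.0198), and that of Igf1r was also lost without 5 of the 6 libraries in turn (log2 fold change -0.59 to -0.36). With Cre in RTEL1 CA cells 2 members, Igf1 and Pappa, were reduced and 0 increased, beside 0.569% and 0.525% of genes. After Terf1 deletion 1 member was reduced and 0 increased, beside 0.765% and 2.65%. Over the 7 members above the floor in these groups, the median log2 fold change was -1.02 after Rtel1 deletion and -0.28 with TMPyP4, beside medians over all tested genes of -0.03 and -0.01.

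The direction or the call of the largest differences depended on which undeleted cells served as control. RTEL1 CA +GFP cells differed from Rtel1 F/F +GFP cells in 6 members, 2 higher and 4 lower, beside 22.6% and 22.1% of all genes. The 4 lower ones were Igfbp2, Igf1, Igfbp6 and Igfbp4 (log2 fold changes -7.94 ± 0.51, -3.56 ± 0.15, -1.56 ± 0.36 and -0.98 ± 0.16), and the higher ones were Pappa (0.67 ± 0.12) and Igfbp3, which rests on 14 counts against 0 and is at least 1.71-fold higher. The call of Igfbp6 was lost without RTEL1 CA +GFP replicate 2 (adjusted p = 0.0109). Set against RTEL1 CA +GFP, Rtel1 F/F +Cre cells had 4 members called, 2 higher and 2 lower, beside 3.80% and 3.95% of genes. Igfbp7 was higher (log2 fold change 1.03 ± 0.10), and Igfbp4 and Pappa were lower (-0.84 ± 0.18 and -1.39 ± 0.13), each in the same direction as against Rtel1 F/F +GFP. Igfbp2 was higher (3.87 ± 0.61), the opposite direction, and Igf1 was at 0.12 ± 0.14 (interval of 2 SE on each side, -0.17 to 0.41), not called. Igf1r was at -0.40 ± 0.12, not called (adjusted p = 0.038), but it was lower in each of the 3 pairs of like-numbered libraries and passed with the replicate number as a block (adjusted p = 5.29e-04). TMPyP4-treated cells had 5 members called against RTEL1 CA +GFP, 4 higher and 1 lower, beside 9.94% and 7.07% of genes. Igfbp2 (6.21 ± 0.53), Igf1 (2.37 ± 0.14), Igfbp7 (1.19 ± 0.10) and Igfbp4 (1.01 ± 0.17) were higher and Pappa was lower (-0.69 ± 0.13). Igfbp7 was thus called higher in deleted and in treated cells against both controls, and Igfbp4 and Pappa were called lower in deleted cells against both. The differences of Igfbp2, and that of Igf1 with TMPyP4, were called in opposite directions, while Igf1 in deleted cells was not called against RTEL1 CA +GFP. RTEL1 CA cells also carry a vector, so vector, cell history and the state of the +GFP libraries cannot be told apart here.

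**Figure D3:**
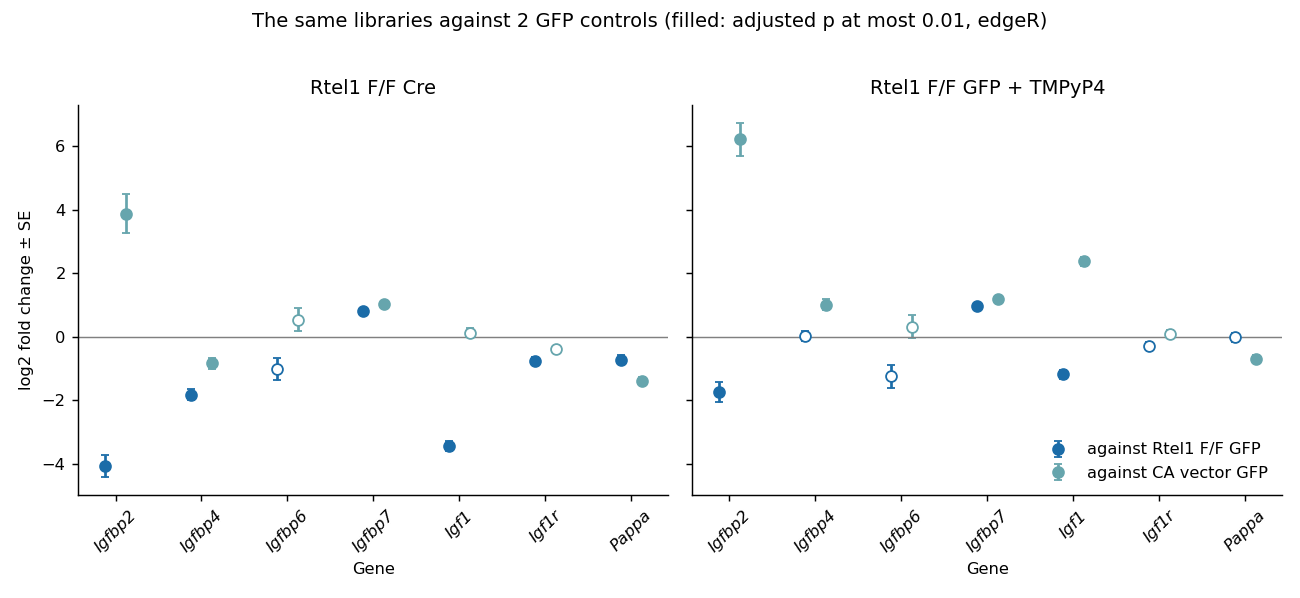
Log2 fold change with its SE (y axis) of 7 members (x axis) in Rtel1 F/F +Cre (left) and TMPyP4-treated cells (right), against Rtel1 F/F +GFP (dark) or RTEL1 CA +GFP (light), 3 libraries per group, with filled points for an adjusted p of at most 0.01. Igfbp7 lies above 0 against both controls, and Igfbp2 moves from -4.07 to 3.87 in +Cre cells.

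Within the Rtel1 F/F line, the summed fibroblast markers and the summed cartilage markers were highest in Rtel1 F/F +GFP cells, but not every marker followed. The summed level of the 8 fibroblast markers was 19178 to 21123 CPM in Rtel1 F/F +GFP libraries, 7302 to 10084 CPM with Cre, 10462 to 14081 CPM with TMPyP4 and 8467 to 12325 CPM in RTEL1 CA +GFP cells. The fibroblast marker Vim went the other way, at means of 1382, 1610, 1605 and 1854 CPM in these groups, as did Thy1 near 0. Of 3 cartilage markers, Matn1 was at or near 0 in every group, so the cartilage sum was mostly Col2a1. Acan had group means of 3.79 to 8.85 CPM in the 5 groups of the Rtel1 F/F line. Its order was another one, with 8.85 CPM in Rtel1 F/F +GFP, 6.39 with Cre, 3.79 with TMPyP4 and 8.68 in RTEL1 CA +GFP cells. Col2a1, the main collagen of cartilage, had a mean of 100.1 CPM in Rtel1 F/F +GFP, 18.1 CPM in TMPyP4-treated and 7.39 CPM in +Cre cells, the same order as Igf1. The summed cartilage markers were at 88.8 to 123 CPM in Rtel1 F/F +GFP libraries, 9.33 to 16.1 CPM with Cre, 16.5 to 26.2 CPM with TMPyP4 and 11.6 to 15.8 CPM in RTEL1 CA +GFP cells. The part of these markers in the levels of Igf1 and Igfbp2 was not tested.

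Whether the effect of Cre differed between lines was tested as a difference of log2 fold changes. Compared with RTEL1 CA cells, 3 members were called, 1 with a more positive and 2 with a more negative effect in Rtel1 F/F cells, beside 12.8% and 12.3% of genes. The differences were -2.59 ± 0.20 for Igf1, -1.53 ± 0.24 for Igfbp4 and 0.55 ± 0.14 for Igfbp7, the last lost in 8 of the 12 fits that left out 1 library. The reductions of Pappa in both kinds of cells differed by 0.12 ± 0.18 (interval of 2 SE on each side, -0.24 to 0.49). Compared with Terf1 F/F cells, 6 members were called, 1 more positive and 5 more negative, beside 15.8% and 14.5% of genes. The differences were -4.69 ± 0.46 for Igfbp2, -3.08 ± 0.20 for Igf1, -1.36 ± 0.23 for Igfbp4, -1.10 ± 0.18 for Pappa, -0.80 ± 0.17 for Igf1r and 0.60 ± 0.14 for Igfbp7, the last lost in 5 of 12 such fits. All of these differences use the Rtel1 F/F +GFP libraries as their base.

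Before Cre, the lines already differed: 7 members differed between Terf1 F/F +GFP and Rtel1 F/F +GFP cells, 6 higher and 1 lower, beside 30.3% and 24.5% of genes. Igfbp3 and Igfbp5 passed the filter through the Terf1 F/F libraries, which fixed their direction here, so the count without them is 4 higher and 1 lower of 7. Their ratios stand above, and Igfbp4, Igfbp7, Pappa and Igfbp6 were higher in Terf1 F/F cells with log2 fold changes of 2.67 ± 0.16, 1.89 ± 0.10, 1.80 ± 0.12 and 1.50 ± 0.35. Igf1 was lower (-3.79 ± 0.15), and Igfbp2 and Igf1r were not called (0.49 ± 0.30 and 0.18 ± 0.12). The floxed gene, the origin of the cells and Thy1 and Y-linked transcripts differ together between these lines and cannot be told apart.

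Per transcript length, Igfbp7 had the largest group mean of the 6 binding-protein transcripts in every group. Its mean share of their summed TPM lay between 45.3% (Rtel1 F/F +GFP) and 87.4% (Rtel1 F/F +Cre). In replicate 2 of Rtel1 F/F +GFP, however, Igfbp2 was higher (67.7 TPM) than Igfbp7 (64.8 TPM). The summed level was 157 ± 12.7 TPM in Rtel1 F/F +GFP (SD, n = 3), 119 ± 7.67 with Cre, 149.8 ± 0.251 with TMPyP4, 60.8 ± 1.03 in RTEL1 CA +GFP, 69.6 ± 2.25 in RTEL1 CA +Cre, 492 ± 44.8 in Terf1 F/F +GFP and 525 ± 42.8 TPM in Terf1 F/F +Cre cells. In Rtel1 F/F +GFP cells Igfbp2 made up 34.4% ± 8.32 and Igfbp6 16.1% ± 0.683 of this sum, and in +Cre cells they made up 2.35% ± 1.24 and 8.95% ± 4.18. TPM carry no TMM scaling, and their scale against CPM differed between groups. Igfbp7 averaged 70.3 TPM and 33.7 CPM in Rtel1 F/F +GFP, 104 TPM and 58.7 CPM with Cre, and 120 TPM and 65.6 CPM with TMPyP4. Differences of the sums between groups therefore need not hold on the CPM scale and were not tested, while shares within a library do not depend on that scale. The ratio of summed binding-protein TPM to Igf1 TPM was 5.91 to 7.96 in Rtel1 F/F +GFP, 16.1 to 19.0 with TMPyP4 and 55.9 to 75.2 with Cre, with no overlap. It was 36.6 to 38.5 in RTEL1 CA +GFP and 70.7 to 86.5 in RTEL1 CA +Cre cells, and 274 to 330.4 and 414 to 432 in Terf1 F/F +GFP and +Cre cells. In each of the 3 kinds of cells the ratio was higher in every +Cre than in every +GFP library.

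**Figure D4:**
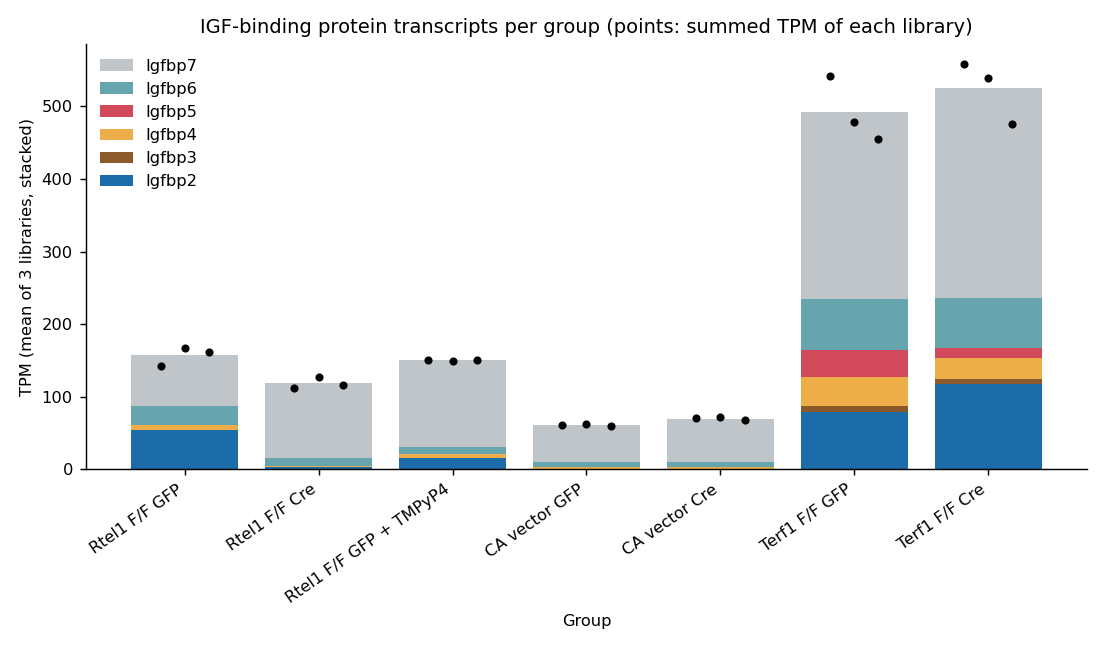
TPM of the 6 binding-protein transcripts (y axis, means of 3 libraries stacked) in the 7 groups (x axis), with a point for the sum in each library. Igfbp7 forms the largest part of every bar, and the Terf1 F/F bars reach 492 and 525 TPM. The share of Igfbp2, taken per library and then averaged, is 34.4% in Rtel1 F/F +GFP and 2.35% in Rtel1 F/F +Cre cells. TPM are not scaled by TMM.

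Other genes of the pathway were read from a list of 52 genes, of which 45 could be tested. After Rtel1 deletion 22 were called, 6 increased and 16 reduced (48.9% of those tested, beside 43.0% of all genes in either direction), and with TMPyP4 18 were called, 7 increased and 11 reduced (40.0%, beside 30.0% of all genes). Among genes of the list that averaged 1 CPM or more over the compared groups, the largest reductions after deletion were of Pappa2, a second pappalysin, from a mean of 9.72 to 0.768 CPM (log2 fold change -3.66 ± 0.27), of Igf2, the other IGF ligand, from 8.53 to 0.809 CPM (-3.40 ± 0.26), and of Stat5a, a transcription factor of growth hormone signalling, from 35.4 to 10.3 CPM (-1.77 ± 0.21). With TMPyP4, above the same level, they were Pappa2 (-2.22 ± 0.24), Stat5a (-1.34 ± 0.21) and Igf2 (-0.97 ± 0.22). Increases after deletion, again above 1 CPM, were led by Htra1, a secreted protease of IGF-binding proteins, from 57.2 to 112 CPM (0.97 ± 0.06), by the PI3K subunit gene Pik3cb, from 44.3 to 86.2 CPM (0.96 ± 0.09), and by the growth hormone receptor Ghr, from 40.7 to 60.3 CPM (0.57 ± 0.08). With TMPyP4 they were led, above that level, by Stc2, an inhibitor of pappalysins, from 2.13 to 6.66 CPM (1.64 ± 0.20), Htra1 (1.15 ± 0.06) and Pik3cb (0.65 ± 0.09). Between +Cre and TMPyP4, 12 were lower in +Cre cells and 0 higher, beside 9.09% and 6.13% of all genes, among them Igf2 (-2.44 ± 0.26), Pappa2 (-1.44 ± 0.28) and Stc2 (-1.36 ± 0.20). With Cre in RTEL1 CA cells and in Terf1 F/F cells the count was 1 each, and in both it was Grb10, an adaptor that restrains IGF1R and insulin receptor signalling (2.22% of those tested, beside 1.09% and 3.42% of all genes). Grb10 fell from a mean of 480.2 to 307 CPM (-0.64 ± 0.08, adjusted p = 1.64e-04) and from 597 to 453 CPM (-0.40 ± 0.08, adjusted p = 0.0035), and after Rtel1 deletion from 564 to 248 CPM (-1.19 ± 0.08, adjusted p = 1.87e-09). Grb10 was thus called lower with Cre in all 3 kinds of cells, but the call in Terf1 F/F cells was lost without 4 of the 6 libraries in turn and that in RTEL1 CA cells in a fit of these 2 groups alone. With TMPyP4 it was not called (-0.18 ± 0.08, adjusted p = 0.0801). Against RTEL1 CA +GFP cells 7 genes of the list were called in Rtel1 F/F +Cre cells in place of 22 (15.6% of those tested), and the share of all genes called fell alongside, from 43.0% to 7.76%. There Htra1 (0.60 ± 0.06) and Ghr (0.33 ± 0.08) were again higher and Grb10 (-0.96 ± 0.08) again lower, Igf2 was higher (1.58 ± 0.36), the opposite direction, and Pappa2 (0.12 ± 0.31), Stat5a (0.09 ± 0.21) and Pik3cb (-0.12 ± 0.09) were not called. In TMPyP4-treated cells against RTEL1 CA +GFP, Htra1 (0.77 ± 0.06) and Stc2 (1.43 ± 0.20) were again higher, Igf2 (4.02 ± 0.30) and Pappa2 (1.56 ± 0.28) were higher and Pik3cb (-0.43 ± 0.09) lower, each opposite to the first control, and Stat5a was not called (0.52 ± 0.21).

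The genes whose pattern was closest to a member were found by the root-mean-square difference (RMS) of log2 CPM, each centred on its own mean over the 21 libraries, among 10239 candidates that averaged 5 CPM or more. For Igfbp2, whose own SD over the libraries was 3.49, the closest were Igf2 (RMS 0.94), C1s1 (1.61) and Enpep (1.76). Igf2 had group means of 8.53, 0.809 and 4.38 CPM in Rtel1 F/F +GFP, +Cre and TMPyP4-treated cells, 0.264 and 0.131 CPM in RTEL1 CA and 33.1 and 27.7 CPM in Terf1 F/F cells. For Igf1 (SD 1.55) they were Ndnf (0.45), Rarres1 (0.52) and Prelp (0.59), and Ndnf fell from a mean of 131 CPM in Rtel1 F/F +GFP to 5.17 CPM in +Cre cells. For Igfbp7 (SD 0.87) the closest was Htra1 (0.22), followed by Fam213a (0.26) and Nudt18 (0.30). The closest genes to Igfbp4 were Npr3, Plxdc2 and Rspo2 (0.32 to 0.40), to Igfbp6 Calhm2, Man1c1 and Cd248 (0.29 to 0.33), and to Pappa Mecom, Efna5 and Ebf1 (0.34 each). Igfbp3 was closest to Meg3, Tll1 and Hic1 (0.61 to 0.71), and Igfbp5 to the Y-linked genes Kdm5d, Uty and Ddx3y (0.50 to 0.59), which were at group means of 35.9 to 112 CPM in the Terf1 F/F groups and at most 0.0637 CPM in the others. These measures describe likeness over libraries that share cells and controls. Igf1r, whose group means spanned 0.99 on the log2 scale, was too even for such a ranking.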

How the data were processed

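Total RNA from MEFs was sequenced in 21 libraries of 7 groups. The authors used cutadapt 1.9.1 for trimming, STAR 2.5.2a for alignment and RSEM 1.3.0 for quantification over RefSeq genes of mm10, and the deposited table holds expected counts and TPM per gene, with DESeq2 1.28.0 also named in the processing notes. All deposited expected counts were whole numbers (0 genes with other values), so they were used as deposited, and RSEM shares out reads that fit several transcripts by estimation. The deposited TPM values were used to compare levels between genes and for the summed binding-protein transcripts, their shares and their ratio to Igf1. They were not scaled by TMM.

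Groups were taken from the sample labels. Counts were filtered by group and normalized by TMM, and an edgeR 4.0.16 quasi-likelihood model with 1 term per group was fitted to all 21 libraries (14 residual degrees of freedom, R 4.3.3), with Benjamini-Hochberg adjustment over the 13719 genes tested and calls at an adjusted p of at most 0.01. CPM were computed from TMM library sizes, with a prior count of 2 on the log2 scale. SE is an approximate standard error, derived from the test as the size of the log2 fold change divided by the square root of its F statistic. Counting intervals are exact Poisson intervals at 95% and, like the floor of 3 counts per library, cover counting error only. Set changes were recovered in counts simulated from the spread that edgeR itself had estimated, with independent libraries. That checks the code and not how well the model describes these libraries. Libraries of one number were taken to pair where all 3 correlations of their deviations over 11840 genes exceeded 0.1. They paired for Rtel1 F/F +Cre with TMPyP4 (0.72, 0.76 and 0.41) and for the RTEL1 CA groups (0.86, 0.84 and 0.42). RTEL1 CA +GFP also paired with Rtel1 F/F +Cre (0.78, 0.81 and 0.20) and with TMPyP4 (0.78, 0.69 and 0.30). Groups of different lines paired too, such as Terf1 F/F +GFP with RTEL1 CA +GFP (0.83, 0.36 and 0.26), RTEL1 CA +Cre (0.83, 0.39 and 0.35) and TMPyP4 (0.79, 0.37 and 0.13). The Terf1 F/F groups did not pair (0.55, 0.36 and -0.10). No group paired with Rtel1 F/F +GFP, where the highest correlation was 0.14. What libraries of one number share was not tested.

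The members and the pathway list were chosen with earlier results of these data known. Named were all members, the targeted genes, up to 3 called list genes per direction averaging 1 CPM or more, and the 3 genes of at least 5 CPM closest to each member whose group means span over 1 on the log2 scale. Alternatives were DESeq2 1.42.0, DESeq2 size factors, other filters, a replicate block, fits of the compared groups alone, each library left out, an adjusted p of at most 0.05 and RTEL1 CA +GFP as control. The block in the comparisons with RTEL1 CA +GFP was added after seeing the data.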

Additional observations from a re-analysis of the deposited data

Results flagged for a closer look

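The effect of Cre differed between lines for 6 members by the interaction term of the edgeR model, adjusted over all genes tested. Against RTEL1 CA cells 3 members were called, beside 25.1% of all genes, and against Terf1 F/F cells 6, beside 30.2%. Relative to RTEL1 CA cells, the log2 effect in Rtel1 F/F cells was more negative by -2.59 for Igf1 (adjusted p = 1.58e-07) and by -1.53 for Igfbp4 (adjusted p = 1.06e-04), and more positive by 0.55 for Igfbp7 (adjusted p = 0.00581). Relative to Terf1 F/F cells, the differences were -4.69 for Igfbp2 (adjusted p = 1.02e-06), -3.08 for Igf1 (adjusted p = 4.99e-09), -1.36 for Igfbp4 (adjusted p = 1.32e-04), -1.10 for Pappa (adjusted p = 8.82e-05), -0.80 for Igf1r (adjusted p = 0.00124) and 0.60 for Igfbp7 (adjusted p = 0.00263). All of them contain the Rtel1 F/F +GFP libraries, which stood apart on the first principal component, and the part of those libraries in the differences was not tested. Against RTEL1 CA +GFP, Igf1 in Rtel1 F/F +Cre cells was at a log2 difference of 0.12. The call of Igfbp7 held in 4 of 12 fits that left out 1 library relative to RTEL1 CA cells, and in 7 of 12 relative to Terf1 F/F cells.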

How the results depend on the processing

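Depth limits Igfbp3 and Igfbp5 in the Rtel1 F/F line and Igfbp2 in RTEL1 CA cells, where a change could not be read from so few counts, and 3 libraries per group limit the rest. With RTEL1 CA +GFP as control, the log2 difference changed sign in Rtel1 F/F +Cre cells for Igfbp2 (3.87), Igfbp6 (0.54) and Igf1 (0.12), and in TMPyP4-treated cells for Igfbp2 (6.21), Igf1 (2.37), Igfbp6 (0.32) and Igf1r (0.071). Of these, Igfbp2 with Cre and Igfbp2 and Igf1 with TMPyP4 were called against that control, and the others were not. With it, 5 members were called with TMPyP4 in place of 3, and 7 pathway genes with deletion in place of 22, while the share of all genes called fell from 30.0% to 17.0% with TMPyP4 and from 43.0% to 7.76% with deletion. The call of Igf1r after deletion was lost (-0.40). The cause was not tested.

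With the replicate block, 34 pathway genes were called after Rtel1 deletion, 5 members with TMPyP4 and 3 pathway genes in Terf1 F/F cells, and Igfbp6 moved to 0.013 in Terf1 F/F cells. For the block and the settings that follow, no share of all genes called is given. The counts there cannot be set against such a share and are not read as a result about the members. Igfbp6 passed the threshold with TMPyP4 in 5 settings (the block, DESeq2, DESeq2 size factors, the stricter filter and the compared groups alone) and with Cre in 2 (the block and DESeq2). In both comparisons it passed in none of the fits that left out 1 library. The block also brought past the threshold Igf1r with TMPyP4 (adjusted p = 0.00275), in RTEL1 CA +GFP against Rtel1 F/F +GFP (adjusted p = 2.52e-04) and in the Cre effect against RTEL1 CA (adjusted p = 6.49e-04). These comparisons include groups whose numbers were not found to pair. Where the numbers paired, the block changed no call of a member between +Cre and TMPyP4 (5 called), in RTEL1 CA cells (2 called) or with TMPyP4 against RTEL1 CA +GFP (5 called). With Cre against RTEL1 CA +GFP it added Igf1r (-0.40, adjusted p = 5.29e-04), for 5 called in place of 4; this block was chosen after seeing the data.

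Fitting the compared groups alone left 2 members called between +Cre and TMPyP4, and 0 members and 0 pathway genes in RTEL1 CA cells; fewer libraries leave fewer residual degrees of freedom. At an adjusted p of at most 0.05, which also calls more of all genes, 5 members were called with TMPyP4 and 5 in the Cre effect against RTEL1 CA. At that threshold 3 pathway genes were called in RTEL1 CA and 4 in Terf1 F/F cells. DESeq2 called 2 and 4 pathway genes in the last 2 comparisons. A filter of at least 10 counts in every library removed Igfbp2, Igfbp3 and Igfbp5, which were thus not tested under it in any comparison. It left 0 members called after Terf1 deletion. DESeq2 size factors and no filter reversed 0 members.

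When single libraries were left out, the number of members called was 6 after Rtel1 deletion, 3 with TMPyP4, 4 to 5 between +Cre and TMPyP4, 1 in each such fit of RTEL1 CA cells and 1 after Terf1 deletion. Pathway genes called ranged from 19 to 23, 12 to 18, 8 to 12, 1 to 1 and 0 to 1. Log2 fold changes near 0 crossed it for Igfbp4 (-0.079 to 0.10) and Pappa (-0.13 to 0.053) with TMPyP4, for Igfbp6 between +Cre and TMPyP4 (-0.025 to 0.56), in RTEL1 CA (-0.26 to 0.31) and in Terf1 F/F cells (-0.19 to 0.27), and for Igfbp3 (-0.21 to 0.014) and Igf1r (-0.012 to 0.11) in Terf1 F/F cells. A check of TPM from CPM and gene length was not run, since the table gives no lengths.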
